A study of Rattus norvegicus with 6 samples.

Results

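Glutathione transferases couple the tripeptide glutathione to reactive molecules, and 8 genes of this enzyme family were followed in cultured rat spinal cord astrocytes: Gstp1, Gstm1, Gstm2, Gsta4, Gstt1, Gsto1, Mgst1 and Mgst3. They were chosen by name: every probe set whose platform gene symbol is one of the 8 was taken. Each gene had 1 probe set, which gave 8 of the 31042 probe sets of the array, and all 8 passed the filter on dim signals. Of the probe sets with several gene symbols, 0 named a member.

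The arrays compared 2 groups of 3 samples of primary astrocytes from rat spinal cord. The NonTG group came from rats without a transgene, and the hSOD1G93A group from rats carrying a mutant human superoxide dismutase 1 that is linked to amyotrophic lateral sclerosis, a disease of motor neurons. Both groups were grown to confluence and kept for 24 h in supplemented L15 medium, and 5 ug of total RNA was used per array. Each group has replicates A, B and C. The age of the rats, the promoter of the transgene and the number of rats behind a sample are not given in the sources used here. No label says whether the samples of a group are separate cultures.

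As background, cytosolic transferases fall into classes named by Greek letters, among them alpha (Gsta), mu (Gstm), pi (Gstp), theta (Gstt) and omega (Gsto), while the Mgst proteins are membrane enzymes of a separate family. The glutathione conjugates they make are pumped out of the cell and trimmed to mercapturic acids. Many transferase genes are targets of the transcription factor Nrf2, which binds antioxidant response elements. In the brain, mu class enzymes are known from astrocytes, and the pi class enzyme is widely used as a marker of oligodendrocytes.

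Signals are MAS5 intensities, which are comparable between arrays for one probe set but not between probe sets. Differences are hSOD1G93A minus NonTG on the log2 scale, with the standard error (SE) and 95% interval from limma. The median signal per array lay between 128.85 and 136.28.

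The promoters of Gstp1 and Gsta4 are shown because Gstp1 was the member whose groups did not overlap and Gsta4 the member that differed between the replicate letters. The table of RefSeq promoters (GRCr8) held 7 of the 8 members. Each sequence is the 250 bases before the transcript start, 5′ to 3′ on the gene's strand. Capitals mark matches, on either strand, to the core of the antioxidant response element (TGACNNNGC), to an AP-1 site (TGANTCA) and to the core site of the aryl hydrocarbon receptor (GCGTG).
Gstp1, chr1:210769706-210769955, minus strand: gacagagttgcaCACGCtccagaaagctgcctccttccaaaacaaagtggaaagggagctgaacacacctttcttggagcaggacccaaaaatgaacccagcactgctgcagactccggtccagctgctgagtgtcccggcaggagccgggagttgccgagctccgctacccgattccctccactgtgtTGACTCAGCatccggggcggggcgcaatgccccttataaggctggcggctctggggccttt
Gsta4, chr8:87947015-87947264, plus strand: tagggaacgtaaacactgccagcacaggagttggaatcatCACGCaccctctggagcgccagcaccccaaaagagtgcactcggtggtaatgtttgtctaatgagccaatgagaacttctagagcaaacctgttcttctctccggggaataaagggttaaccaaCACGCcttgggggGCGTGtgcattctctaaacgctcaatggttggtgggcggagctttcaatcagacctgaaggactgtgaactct

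In the Gstp1 window, TGACTCAGC began 61 bases before the start and matched both the antioxidant and the AP-1 pattern, which overlap there. Of the 7 members in the table, 1 matched TGACNNNGC, 2 matched TGANTCA (Gstp1 and Mgst1) and 3 matched GCGTG (Gstp1, Gsta4 and Mgst3). The same patterns were found in 10.1%, 6.34% and 25.9% of all 33469 windows of this length. A match is a description of the letters and does not show that a factor binds there.

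None of the 8 members passed the test between hSOD1G93A and NonTG. At an adjusted p of 0.05, limma called 0 of the 8 and 0% of all 18625 tested probe sets. An unadjusted p below 0.05 was found for 0 of the 8 members and for 474 probe sets, or 2.54%. With the letter as a replicate block the call was again 0 of 8 and 0% of all. The median difference was -0.0085 over the members (3 higher and 5 lower) and 0.0070 over all probe sets tested. For 6 of the 8 members the 95% interval lay within 1.5-fold in both directions. The exceptions were Gsta4 and Gstt1. In these bulk samples, fewer cells of a type and less RNA per cell cannot be told apart.

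Gstp1 (1388122_at) encodes the pi class enzyme, which conjugates electrophiles and also binds stress-activated kinases. Its signals were 3619, 3811 and 3816 on NonTG arrays A, B and C, and 4308, 4032 and 3956 on hSOD1G93A arrays A, B and C. All 3 hSOD1G93A arrays thus lay above all 3 NonTG arrays, the only such case among the 8 members. The separation was narrow, since hSOD1G93A C stood little above NonTG C. Groups that do not overlap, with hSOD1G93A higher, were found for 1 of 8 members and for 4% of all probe sets. With hSOD1G93A lower the counts were 0 of 8 members and 3.51% of all, and in either direction 7.51% of all. The difference was 0.13 (SE 0.073, 95% interval -0.036 to 0.29), or 1.09-fold, and limma's adjusted p was 0.9997. Within the letters it came to 0.25 in A, 0.081 in B and 0.052 in C.

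Most tested markers of the oligodendrocyte lineage had positive differences. Of 12 such genes on the array, 6 passed the dim filter. A positive difference was found for 5 of the 6, and for 9679 of all 18625 probe sets tested. The groups did not overlap for 2 of the 6 markers, Ugt8 and Mag, as for 4% of all probe sets with hSOD1G93A higher. Both were weak signals. Ugt8 gave 82.9, 58.3 and 62.2 in NonTG, 2 of them under the dim level, and 104, 115 and 110 in hSOD1G93A. Mag gave 111, 96.8 and 78.1 in NonTG and 129, 197 and 123 in hSOD1G93A. The median difference of the 6 genes was 0.44. The summed signal of the 12, in which bright probe sets weigh most, was 5292 to 5954 on NonTG arrays and 5825 to 7780 on hSOD1G93A arrays. Mbp, myelin basic protein, made up much of that spread, with 1501, 1089 and 592 in NonTG and 2145, 2862 and 790.4 in hSOD1G93A, and it passed limma's test of the letters (adjusted p = 0.019). Cnp, the brightest gene of the list, was lower within every letter, at -0.11, -0.27 and -0.17. None of the 12 was at 0, while Mog, Mobp, Olig2, Sox10, Cspg4 and Opalin were dim. Within letters A, B and C, Ugt8 differed by 0.33, 0.99 and 0.83, Mag by 0.21, 1.02 and 0.65 and Mbp by 0.51, 1.39 and 0.42. For Gstp1 these values were 0.25, 0.081 and 0.052. The part of oligodendrocyte lineage cells in the Gstp1 values was not tested.

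The genes whose pattern over the 6 arrays was most like that of Gstp1 were Acsl3, Snx6 and Cpt1a. The root mean square difference of the centred log2 signals was 0.023 for Acsl3, an enzyme that activates fatty acids. It was 0.025 for Snx6, a sorting protein of endosomes, and 0.028 for Cpt1a, which carries fatty acids into mitochondria. With 6 arrays and 18625 probe sets, such likeness is a description only.

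**Figure D1:**
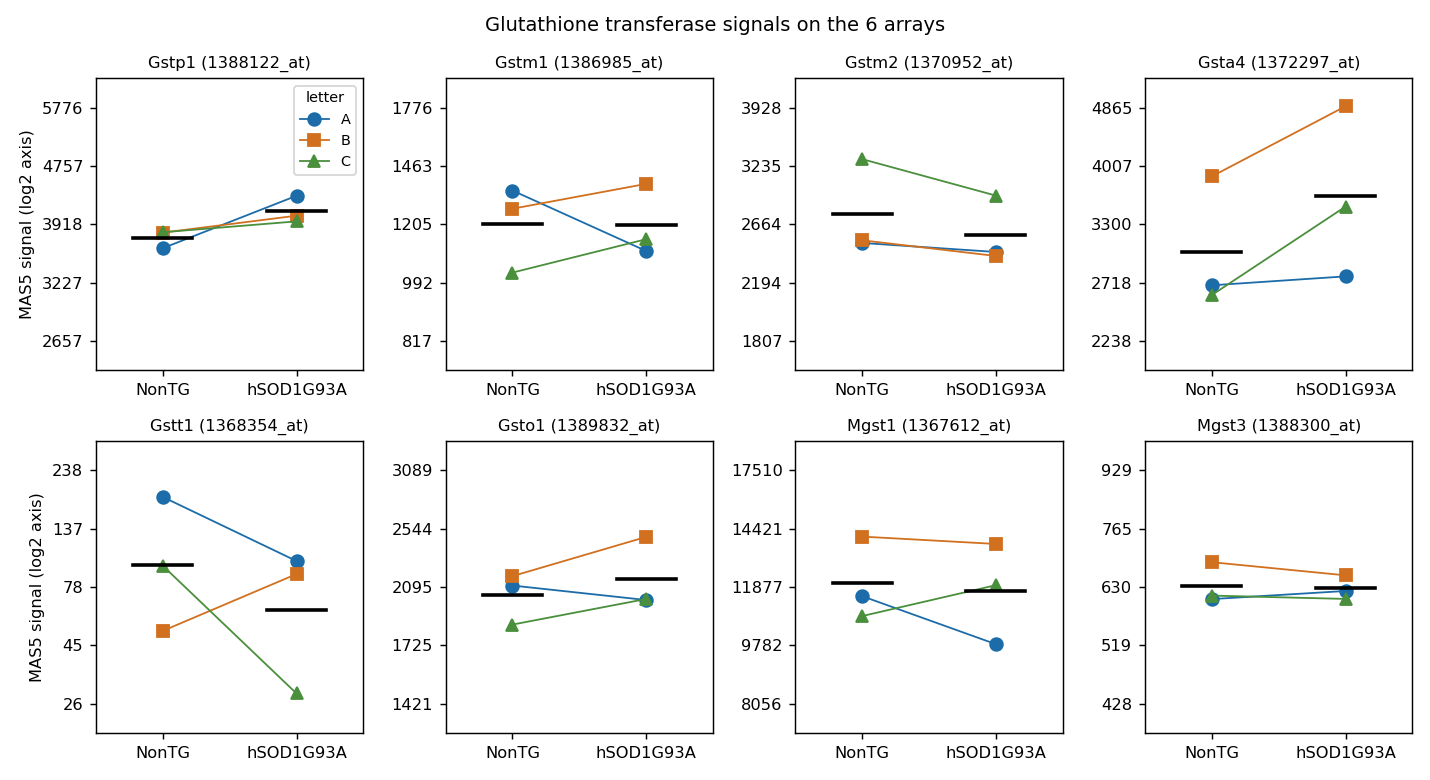
MAS5 signal (log2 axis, one panel per gene with its own range; the Gstt1 panel spans a wider range than the others) on the NonTG and hSOD1G93A arrays; points are arrays, lines join arrays of the same letter and black bars are the group means of the log2 signals. Gstp1 is the panel in which the groups do not overlap (3619 to 3816 against 3956 to 4308), and in the Gsta4 panel letter B is highest in both groups.

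The mu class members showed little between the groups. Gstm1 (1386985_at), a transferase with a broad range of substrates, gave signals of 1348, 1269 and 1026 in NonTG A, B and C and of 1103, 1378 and 1147 in hSOD1G93A A, B and C. The groups overlapped almost wholly, and the difference was -0.0036 (SE 0.13, 95% interval -0.30 to 0.29). Letter A ran one way (-0.29) and letters B and C the other (0.12 and 0.16).

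Gstm2 (1370952_at), a mu enzyme also known for conjugating oxidised dopamine, gave 2504, 2526 and 3309 in NonTG and 2430.0, 2398 and 2931 in hSOD1G93A. Array C was the highest in each group, and the groups overlapped. The difference was -0.098 (SE 0.13, 95% interval -0.39 to 0.19). It had the same sign within all letters, at -0.043, -0.075 and -0.18.

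In the current rat assembly (GRCr8) Gstm2 and Gstm1 lie next to each other in a cluster of mu genes on chromosome 2, with Gstm3 on one side and Gstm4 on the other. Gstm5 and Gstm7 belong to the same cluster. Gstm4 differed by -0.023 (SE 0.14), Gstm5 by -0.14 (SE 0.12) and Gstm7 by 0.18 (SE 0.19), and 0 of them passed limma's adjusted threshold. Gstm3 and Gstm6l were dim on all 6 arrays.

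Gsta4 (1372297_at) encodes the alpha class enzyme with high activity towards 4-hydroxynonenal, a toxic aldehyde of lipid peroxidation. Its signals were 2694, 3870.2 and 2608 in NonTG A, B and C and 2775, 4887 and 3500.4 in hSOD1G93A A, B and C. Array B was the highest of each group, and NonTG B lay above hSOD1G93A A and C, so the groups overlapped. The difference was 0.27 (SE 0.21, 95% interval -0.20 to 0.74), or 1.20-fold. It was positive within every letter, at 0.043 for A, 0.34 for B and 0.42 for C.

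With the letter as a block the interval of Gsta4 narrowed to 0.080 to 0.46. Limma's unadjusted p was then 0.0103 and its adjusted p 0.834, against a range of 0.775 to 1 over the alternatives. Under this block 1090 of the 18625 tested probe sets had an unadjusted p below 0.05 in limma, against 474 without it. With the block as an estimated correlation the SE was 0.16 and the unadjusted p in limma 0.124, so that the interval held 0. Without hSOD1G93A B the difference was 0.052, and without hSOD1G93A A it was 0.46. Higher values in hSOD1G93A within each of the 3 letters were found for 2 of 8 members, Gstp1 and Gsta4, and for 13.5% of all probe sets. Lower values within each were found for 1 of 8, Gstm2, and for 12.2% of all.

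Gstt1 (1368354_at), the theta enzyme that acts on small halogenated compounds, was the weakest measurement. Its signals were 185, 51.7 and 96.0 in NonTG and 100.4, 88.7 and 28.5 in hSOD1G93A. NonTG B and hSOD1G93A C lay under 66.7, the level of the dim filter, and the arrays of one group spread more widely than the groups differed. The difference was -0.62 (SE 0.58, 95% interval -1.92 to 0.68), an interval that runs from 0.265-fold to 1.61-fold. Without hSOD1G93A C it was -0.041, without NonTG A -0.15 and without NonTG B -1.07. Within letter B the sign was opposite (0.78) to that within A (-0.88) and C (-1.75).

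Gsto1 (1389832_at) encodes the omega enzyme, which reduces dehydroascorbate and removes glutathione from proteins. It gave 2105, 2172 and 1849 in NonTG and 2006, 2475 and 2013 in hSOD1G93A. Array B was again the highest of each group, and the groups overlapped. The difference was 0.081 (SE 0.11, 95% interval -0.17 to 0.33).

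The membrane enzymes were close to level. Mgst1 (1367612_at), a transferase and peroxidase of the endoplasmic reticulum and outer mitochondrial membrane, gave 11521, 14045.5 and 10784 in NonTG and 9821, 13706.5 and 11950.5 in hSOD1G93A. Array B was the highest of each group, and the difference was -0.039 (SE 0.13, 95% interval -0.34 to 0.26). After quantile normalization it was 0.0093, with the opposite sign.

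Mgst3 (1388300_at), which also takes part in leukotriene C4 synthesis, gave 606, 685 and 613 in NonTG and 622, 655 and 606 in hSOD1G93A. The arrays of both groups lay in nearly the same range. The difference was -0.013 (SE 0.11, 95% interval -0.26 to 0.23).

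**Figure D2:**
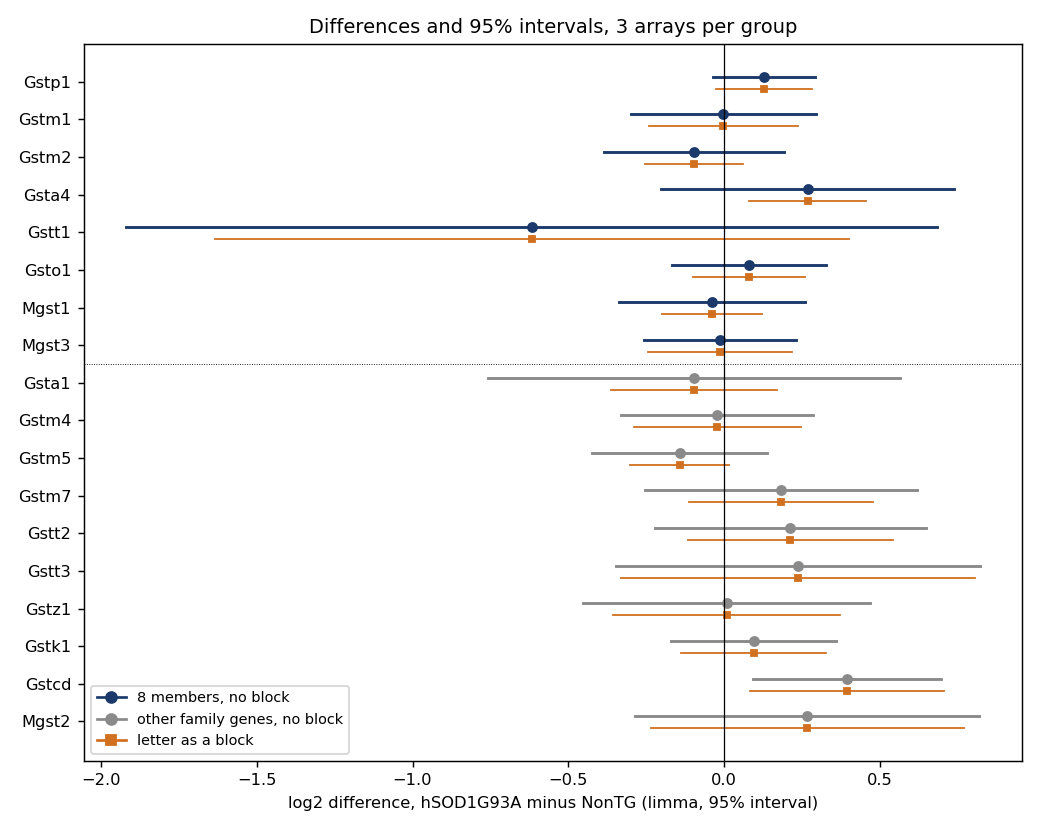
Log2 difference, hSOD1G93A minus NonTG, with limma's 95% interval for the 8 members (dark blue) and the 10 other tested family genes (grey), and below each the interval with the letter as a block (orange squares). Without the block the interval of every member crosses 0; with it as a fixed term, that of Gsta4 runs from 0.080 to 0.46, and Gstt1 has the widest intervals of all.

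The replicate letters separated 1 of the 8 members. In limma's F test of the letters, with the group in the model, Gsta4 had an adjusted p of 0.0339, and 1.05% of all probe sets (195) passed. Its mean log2 signal came to 11.42 in letter A, 12.09 in B and 11.56 in C, a range of 0.67 that is wider than its difference between the groups. The call ended without a filter on dim probe sets (adjusted p = 0.0572 in limma), without the intensity trend (0.349, where 0 probe sets passed) and without hSOD1G93A B (0.0812), within a range of 9.53e-06 to 0.349 over the alternatives. The labels do not say what the letters stand for.

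The other members did not pass the test of the letters. Mgst1 had letter means of 13.38, 13.76 and 13.47 (limma's adjusted p = 0.123) and Gstm2 of 11.27, 11.27 and 11.60 (adjusted p = 0.126). Gstp1 was the most even, with 11.95, 11.94 and 11.92 (adjusted p = 0.985). Letter B was thus the highest for Gsta4 and Mgst1, and letter C for Gstm2.

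Among the other family genes, Gsta1 (1367774_at), an alpha enzyme, passed the test of the letters. Its signals were 602, 1387 and 1208 in NonTG A, B and C and 712, 1141 and 1014 in hSOD1G93A A, B and C. Letter A was the lowest in each group, and limma's adjusted p for the letters was 0.0337. It was 0.343 without the intensity trend, the highest of its alternatives, and 6.83e-06 at the lowest. Among markers of other cells, 1 of 6 tested oligodendrocyte genes, 2 of 11 fibroblast and meningeal genes and 1 of 9 pericyte and smooth muscle genes passed the test of the letters, where 1.05% of all probe sets did. The passing markers, Mbp, Fn1, Col3a1 and Rgs5, each had their highest letter mean in A, whereas Gsta4 and Gsta1 had theirs in B. None passed among 13 astrocyte, 8 neuron, 2 microglia, 2 endothelial and 2 ependymal genes. Nearest to passing among these were S100b of astrocytes and Foxj1 of ependymal cells (adjusted p = 0.0539 and 0.0599 in limma). Both had their highest letter mean in B. The lists were not tested against each other. Their part in the values of Gsta4 and Gsta1 was not tested.

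**Figure D3:**
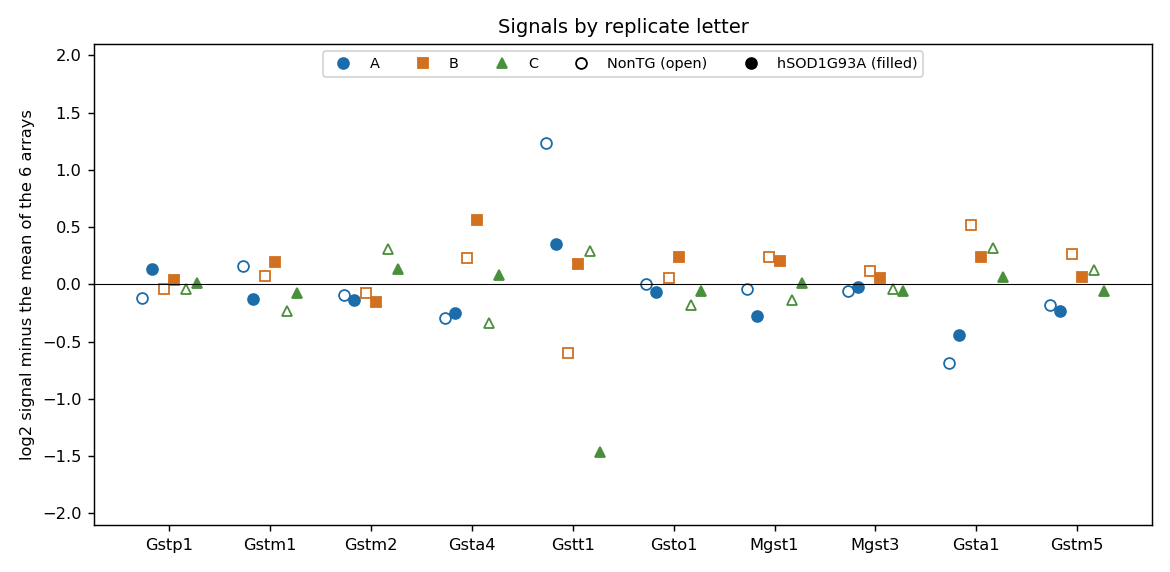
Log2 signal of each array minus the mean of the 6 arrays, for the 8 members and for Gsta1 and Gstm5; colours and shapes are the letters, open symbols NonTG and filled symbols hSOD1G93A. Gsta4 has both letter B arrays on top and Gsta1 both letter A arrays at the bottom, while the Gstp1 points lie close together.

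Of the 22 other transferase genes sought, 16 had a probe set of their own and 10 passed the dim filter. None was called (0 of 10 in limma), with 7 higher, 3 lower and a median difference of 0.14, beside 0.0070 over all probe sets. Without hSOD1G93A B the median of the 10 was -0.0063. The smallest p was that of Gstcd (1382062_at), a protein with a transferase-like domain. It gave 331, 292 and 277 in NonTG and 376, 394 and 410 in hSOD1G93A. The groups did not overlap, as for 4% of all probe sets with hSOD1G93A higher. The difference was 0.39 (SE 0.13, 95% interval 0.092 to 0.70), with an unadjusted p of 0.0161 and an adjusted p of 0.9997 in limma.

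The other tested family genes were less even. Mgst2, a membrane enzyme that also makes leukotriene C4, differed by 0.27 (SE 0.24), Gstt3 by 0.24 (SE 0.26) and Gstt2 (1368409_at) by 0.21 (SE 0.19). Another Gstt2 probe set (1396468_at) was left out as dim. It gave 48.4, 113 and 56.5 in NonTG and 55.6, 38.2 and 9.61 in hSOD1G93A, so it was lower on average in hSOD1G93A. Gstk1, the mitochondrial and peroxisomal kappa enzyme, differed by 0.094 (SE 0.12), Gsta1 by -0.097 (SE 0.29) and Gstz1, an enzyme of tyrosine breakdown, by 0.0083 (SE 0.20). Dim genes were Gsta3, Gstm3, Gstm6l, Gstp3, Gsto2 and Hpgds. Gstp3, which neighbours Gstp1 in the genome, gave 5.26, 4.34 and 8.94 in NonTG and 42.5, 23.6 and 17.2 in hSOD1G93A, all under the dim level, so no fold is given. Hpgds, which makes prostaglandin D2, gave 26.8, 47.5 and 75.9 in NonTG and 18.6, 17.7 and 21.4 in hSOD1G93A, with 1 array above that level.

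Ptges, a prostaglandin E synthase of the same membrane family as the Mgst proteins, was the tested gene of 3 such relatives sought. Its brightest probe set differed by -0.58 (SE 0.33), and 2 of its 6 signals were under the dim level. Ltc4s and Alox5ap were dim.

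Most tested genes that act after conjugation had a small positive difference, without any call. Of 9 tested genes of conjugate export and the mercapturic acid pathway, 8 were higher and 1 lower. Of all 18625 probe sets tested, 9679 were higher. The median of the 9 genes was 0.14, beside 0.0070 over all probe sets, and 0 were called by limma. Acy3, an aminoacylase that acts on mercapturic acids, differed by 0.31 (SE 0.17) and Acy1, another aminoacylase, by 0.19 (SE 0.10). Ggt7, of the gamma-glutamyltransferase family, was on the lower side, at -0.27 (SE 0.17). The groups did not overlap for these 3 genes, 2 with hSOD1G93A higher and 1 with it lower, where 4% and 3.51% of all probe sets were so.

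Genes that supply and recycle glutathione were split, with 6 higher and 5 lower of 11, a median of 0.0016 and 0 called by limma. Slc7a11, the cystine transporter, gave 339, 438 and 349.6 in NonTG and 441, 629 and 518 in hSOD1G93A, a difference of 0.49 (SE 0.17). Chac2, which degrades glutathione, differed by -0.17 (SE 0.11) and Gss, glutathione synthetase, by -0.22 (SE 0.15). The groups did not overlap for 1 of the 11 with hSOD1G93A higher, Slc7a11. With hSOD1G93A lower they did not overlap for 2, Chac2 and Gclc (-0.094, SE 0.091). Of all probe sets, 4% and 3.51% were so.

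Other enzymes that handle reactive aldehydes and quinones had 9 higher and 11 lower of 20, a median of -0.017 and 0 called by limma. Akr1b1, an aldose reductase that shares lipid aldehydes with Gsta4 as substrates, gave 7418, 8324 and 7412 in NonTG and 6773, 6639 and 5941 in hSOD1G93A. The groups did not overlap, as for 3.51% of all probe sets with hSOD1G93A lower. The difference was -0.26 (SE 0.082), with an unadjusted p of 0.0109 and an adjusted p of 0.9997 in limma. Akr7a2, another aldehyde reductase, differed by 0.19 (SE 0.11) and Aldh9a1, an aldehyde dehydrogenase, by 0.16 (SE 0.10).

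The regulators of transferase genes had 2 higher and 7 lower of 9 tested, a median of -0.072 and 0 called by limma. Of all 18625 probe sets tested, 8946 were lower. The median of the regulators was -0.0028 without hSOD1G93A A and -0.11 without NonTG A. Nfe2l2, which encodes Nrf2, differed by -0.076 (SE 0.094). Its partner Mafk differed by -0.18 (SE 0.22) and Arnt, the partner of the aryl hydrocarbon receptor, by -0.28 (SE 0.24).

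**Figure D4:**
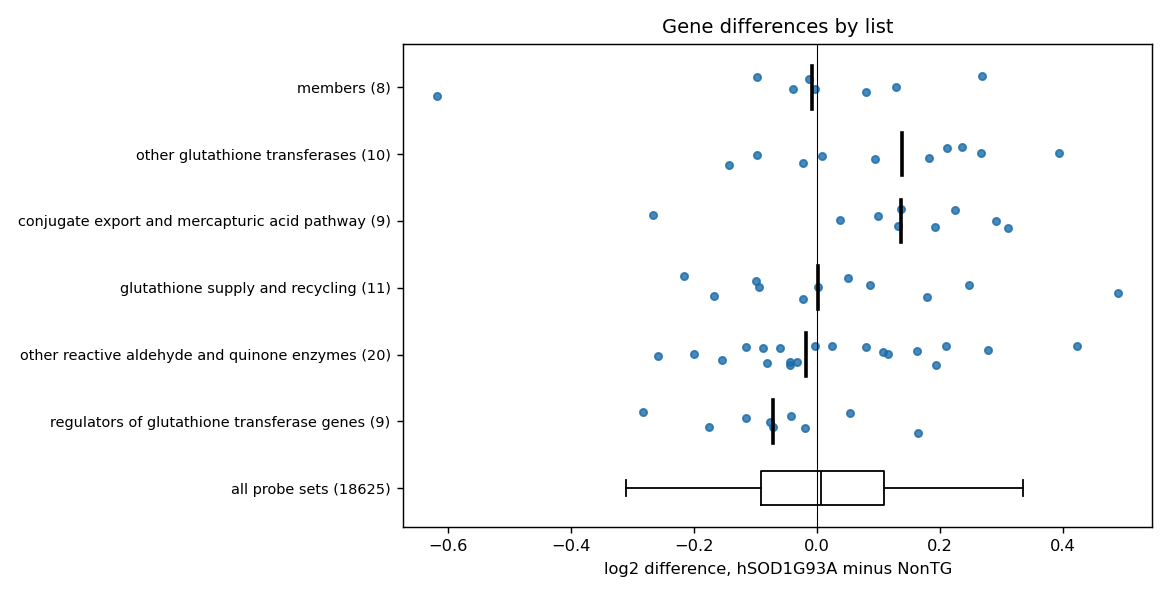
Log2 difference, hSOD1G93A minus NonTG, of each tested gene (blue points, spread vertically for legibility) in the members and in 5 lists, with the list median as a black bar; numbers in brackets are the genes tested. The box below shows all 18625 tested probe sets (quartiles, whiskers at the 5th and 95th percentile), and the members' median of -0.0085 lies close to the median of 0.0070 over all.

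The arrays carried the markers of astrocytes: 13 of 13 on the array passed the dim filter. Their summed signal was 109588 to 119505 in NonTG and 103414 to 119340 in hSOD1G93A. In this sum and those below, bright probe sets weigh most, so a sum compares arrays for the same list only. The brightest astrocyte markers, Fabp7 and Gja1, differed by -0.096 (SE 0.066) and 0.056 (SE 0.11). Of the 13, 8 had a positive and 5 a negative difference, with a median of 0.091. The groups did not overlap for 2 of them, Agt (0.41, SE 0.18) and Slc1a2 (0.47, SE 0.23). Both had hSOD1G93A higher, as 4% of all probe sets did. Of the microglia and macrophage markers 12 of 14 were dim and 2 were tested (Laptm5 at -0.19, SE 0.25, and Fcer1g at 0.14, SE 0.29). Fibroblast and meningeal markers summed to 72456 to 76988 in NonTG and 54471 to 76764 in hSOD1G93A, and of the 11 tested, 4 had a positive and 7 a negative difference. The brightest, Col1a2 and Col3a1, were at -0.12 (SE 0.065) and -0.23 (SE 0.20), while Dcn (2.52, SE 0.32) and Aldh1a2 (1.15, SE 0.23) had positive differences. The groups did not overlap for 2 of the 11 with hSOD1G93A higher, Dcn and Aldh1a2, and for 1 with it lower, Col1a2. Of all probe sets, 4% and 3.51% were so. Dcn had 2 NonTG arrays under the dim level. Pericyte and smooth muscle markers summed to 24005 to 30114.5 and 17877 to 29666. A negative difference was found for 9 of 9 tested, with Tagln at -0.14 (SE 0.087) and Myl9 at -0.30 (SE 0.36), and for 8946 of all 18625 probe sets. Within letter A the signs of the 9 were mixed, with Tagln at -0.087 and Myl9 at 0.42. Among the rest, Cnp and Olig1 of the oligodendrocyte list differed by -0.18 (SE 0.10) and 0.13 (SE 0.15). The brightest neuron markers, Stmn2 and Map2, differed by 0.19 (SE 0.10) and 0.12 (SE 0.088). That list was split, with 5 higher and 3 lower of 8 tested. The lower ones were Nefl (-0.49, SE 0.48), Nefm (-0.21, SE 0.43) and Tubb3 (-0.16, SE 0.38). The endothelial Kdr and Flt1 differed by 0.65 (SE 0.41) and -0.0012 (SE 0.30). The ependymal Foxj1 and Rsph1 differed by 0.16 (SE 0.20) and 0.024 (SE 0.34). None of the marker genes was at 0 on any array.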

How the data were processed

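Labelled RNA from 6 spinal cord astrocyte samples was hybridised to Affymetrix Rat Genome 230 2.0 arrays. The deposited values are linear intensity values, for which the submitters' processing notes name MAS5 and GCOS 1.4. The design text speaks of GC-RMA and log values, which these are not: with 2% trimmed from either end, the 6 arrays had mean signals of 500.16 to 500.17.

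The log2 of each deposited intensity was taken, without a pseudocount. Of 31042 probe sets (57 controls left out), 18625 with a mean log2 signal above the 40th percentile, a signal of 66.7, were tested with limma 3.58.1 in R 4.3.3 (lmFit, then eBayes with a trend on intensity). P-values were two-sided, were adjusted over all of these by the Benjamini-Hochberg method and were read at a threshold of 0.05. The script was tested on simulated data. Of the probe sets, 20826 had 1 gene symbol, and the current rat gene table changed 0 of these symbols.

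Arrays of the same letter deviated together from their group means, with correlations of 0.297 for A, 0.254 for B and 0.199 for C. Between the groups, arrays of different letters gave -0.277 to 0.0249. The letters were therefore taken to pair the arrays and were fitted as a block in an alternative, while the main fit left them out. The test of the letters themselves was added after the data were seen. Alternatives changed the normalization, pseudocount, filter, variance model, array weights and arrays used.

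The members and gene lists were chosen with earlier results of these data known. A gene with several probe sets was represented in a list by its brightest tested one. The text names all members, all tested genes of the transferase family, the 3 genes with the smallest p of each other function list and the 2 brightest genes of each cell type list. Other genes were named after their values were seen. Since no label names separate rats or platings for the 3 samples of a group, the p-values reflect the spread among these samples alone, and that spread may be technical.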

Additional observations from a re-analysis of the deposited data

How the results depend on the processing

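Under all 16 alternatives 0 probe sets and 0 of the 8 members passed limma's adjusted threshold for the groups. Gstp1 and Gsta4 kept a positive difference and Gstt1 a negative one in every alternative run for them; Gstt1 has no value under the stricter filter and ran from -1.07 to -0.041 when an array was left out. Gsta4 ran from 0.052 to 0.46. Mgst1 changed sign after quantile normalization (0.0093). Leaving out each array in turn gave -0.12 to 0.077 for Gstm1, -0.19 to 0.034 for Gstm2, -0.020 to 0.13 for Gsto1, -0.15 to 0.088 for Mgst1 and -0.046 to 0.043 for Mgst3, so each of these 5 small differences changed sign without 1 or more of the arrays. Probe sets whose groups do not overlap numbered 2510 without a filter on dim probe sets and 900 with the stricter filter, where more or fewer probe sets were tested. They numbered 2680 to 4206 when an array was left out, where a rise is built in because smaller groups overlap less often. For the letters, a test added after the data were seen, 110 probe sets passed without the filter and 0 without the intensity trend, and 341 to 1009 when an array was left out; the cause was not tested. The Gsta4 range between letters was 0.67 without the filter and without the trend, where it did not pass, and 0.53 to 0.84 when an array was left out. With the letter as a replicate block the differences were the same (0.13 for Gstp1 and 0.27 for Gsta4), 0 members were called, and no other call changed. Precision is limited by the number of arrays, with a median SE of 0.16 for a difference, and 3 against 3 arrays cannot give a permutation p below 0.1.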
